A study of Mus musculus with 282 samples.

Results

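Proximal duct luminal progenitor markers are 9 mouse genes, Krt4, Krt7, Psca, Ly6a, Ly6d, Clu, Wfdc2, Tspan8 and Cyp2f2, chosen by name with earlier results of these data known. They make up 9 of the 48440 gene rows in each count table, and all 9 were found in both tables. The study profiled 282 single cells of male POET3 mice, sorted from the prostate as basal stem cells; these mice carry a transgene for ovalbumin expression in the prostate and serve as a model of prostatitis. Cells came from inflamed or from naive prostates, and both conditions share the transgene and the sex. Inflamed cells numbered 85 in batch 2 and 78 in batch 3, and naive cells numbered 55 in batch 2 and 64 in batch 3. The sort used CD45, CD31, Sca-1 and CD49f antibodies and a viability dye; the sources used here do not give the gates, the number of mice, their age or how inflammation was induced.

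The prostatic ducts have a proximal end at the urethra and a distal end where most secretory luminal cells sit. In the adult mouse, luminal cells of the proximal ducts are known for progenitor activity and for RNA of this marker set, while basal cells, which lie beneath the luminal layer, are known for Krt5, Krt14 and Trp63. Ly6a encodes Sca-1 itself, so its protein was one of the antigens used to sort these cells.

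Cells with fewer than 1000 detected genes or 50000 counts were left out, which kept 80 inflamed cells of batch 2, 76 inflamed cells of batch 3, 53 naive cells of batch 2 and 59 naive cells of batch 3. Median counts per kept cell lay between 840863 and 1001870 over the 4 groups. The kept cells of a condition and batch were then added up, gene by gene, which gave 4 sums of 50105953 to 79225330 counts. Levels of sums are CPM, the reads of a gene per 1000000 reads of the library scaled with TMM factors; levels of single cells are CPM of that cell's own total. No label ties a cell to a mouse, so each condition had 2 sums, 1 per batch, and p-values measure only the spread between these sums, which may be technical. One naive cell of batch 3, described below, stood apart in its marker reads. Summed reads cannot tell fewer positive cells from less RNA per cell, and the per-cell values below are given for that reason.

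8 of the 9 markers had a higher level in inflamed than in naive sums in both batches, where 30.9% of the 14713 genes tested did so. The exception was Psca, which was read in 3 of the 268 kept cells. 6 of the 9, namely Krt4, Ly6a, Ly6d, Clu, Wfdc2 and Tspan8, were at least 2-fold higher in both batches, against 14.6% of all genes tested. The median log2 ratio of the 9 markers was 3.18 in batch 2 and 2.41 in batch 3, and that of all genes tested was 0.05 in batch 2 and 0.06 in batch 3. Because the markers and the gene lists below were chosen with earlier results known, an excess over all genes may follow in part from the choice. The shares of all genes tested, here and below, are therefore a description and no test.

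With 4 sums and the batch as a term, edgeR's quasi-likelihood test with Benjamini-Hochberg adjustment called 0 of the 9 markers at an adjusted p under 0.05, as it called 0.0% of all genes tested; the lowest adjusted p of any marker was 0.568. 7 of the 9 were higher in inflamed sums at an unadjusted p under 0.05, where 5.04% of all genes tested were, and 0 were lower, where 3.23% were. Krt7 and Psca did not pass that unadjusted threshold. DESeq2, run as an alternative on the same sums, called 6 of the 9 higher (Krt4, Ly6a, Ly6d, Clu, Wfdc2 and Tspan8). Of the 14713 genes tested it called 1461 in all, 927 of them higher and 534 lower. Within 1 batch there is 1 sum per condition and hence no test.

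**Figure D1:**
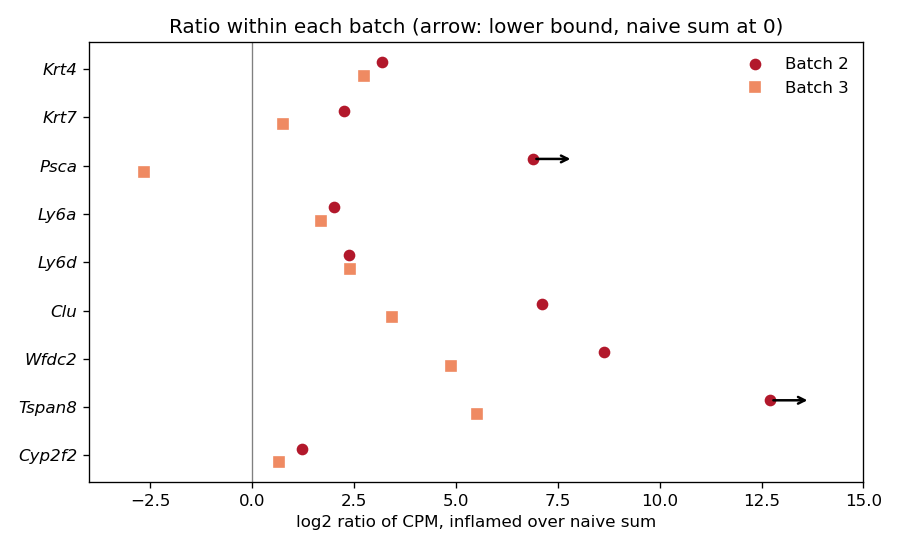
Ratio of the inflamed to the naive sum for each marker, on a log2 scale, in batch 2 (circles) and batch 3 (squares); arrows mark lower bounds where the naive sum had 0 reads. All points lie right of the line at 0, equal levels, except Psca in batch 3.

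Clu, which encodes the secreted chaperone clusterin, was the marker with the most reads. Its level was 10124.5 CPM in the inflamed sum of batch 2 and 12007.6 CPM in that of batch 3, against 72.7 CPM and 1115 CPM in the naive sums of batches 2 and 3. Both inflamed sums lay above both naive sums, by 139.2-fold in batch 2 and 10.8-fold in batch 3 (log2 fold change 5.27 ± 1.24 SE, edgeR's quasi-likelihood test, unadjusted p = 0.0160, adjusted p = 0.568). Every kept inflamed cell had a Clu read, and the per-cell level ran over 27.7, 6132 and 41209 CPM (lowest, median and highest) in batch 2 and over 5.65, 7363 and 49551 CPM in batch 3. In naive cells the lowest, median and highest levels were 0, 2.27 and 1316 CPM in batch 2 and 0, 12.8 and 25114 CPM in batch 3. The ranges of single cells overlapped, but 86.2% of inflamed cells of batch 2 and 90.8% of batch 3 reached 1000 CPM, against 1.89% of naive cells of batch 2 and 13.6% of batch 3. One naive cell of batch 3 held 55% of that sum's Clu reads, and with the top cell left out of each sum the ratios were 196.7-fold and 21.6-fold in batches 2 and 3.

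Tspan8 encodes a tetraspanin, a protein of the cell membrane. It had 356 CPM in the inflamed sum of batch 2 and 490 CPM in that of batch 3, against 0 reads in the naive sum of batch 2 and 10.7 CPM in that of batch 3. The inflamed sums were high and the naive sums low, with no overlap. The inflamed level was at least 6695-fold higher in batch 2, computed against a floor of 3 counts for the naive sum, and 45.9-fold higher in batch 3. The fitted difference depends on the prior count where a sum is at 0 (log2 fold change 8.83 ± 3.02 SE, edgeR's quasi-likelihood test, unadjusted p = 0.0479, adjusted p = 0.568). Tspan8 was read in 83.8% of inflamed cells of batch 2 (exact 95% interval 73.8% to 91.1%) and 75% of batch 3 (63.7% to 84.2%), against 0 of 53 naive cells of batch 2, which allows a share of up to 5.66% by 3 counts and 6.72% by the exact interval, and 20.3% of naive cells of batch 3 (11% to 32.8%). These intervals and floors are Clopper-Pearson or 3-count values and cover counting error only. Of the 12 naive cells with a read in batch 3, 11 had 1 to 4 reads, and the remaining cell held 97.6% of the sum's Tspan8 reads. With the top cell left out of both batch 3 sums the ratio was 1761-fold.

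Wfdc2 encodes a secreted protein with WAP domains, known from ductal and airway epithelia. Its levels were 120.6 CPM and 63.5 CPM in the inflamed sums of batches 2 and 3, against 0.301 CPM and 2.15 CPM in the naive sums of batches 2 and 3. Every inflamed sum was above every naive one, 400.5-fold in batch 2 and 29.6-fold in batch 3 (log2 fold change 6.72 ± 1.53 SE, edgeR's quasi-likelihood test, unadjusted p = 0.0142, adjusted p = 0.568). The naive level of batch 2 rests on 17 reads, while the inflamed ones rest on 9510 and 4831 reads in batches 2 and 3. Wfdc2 was read in 55% of inflamed cells of batch 2 and 40.8% of batch 3, against 3.77% of naive cells of batch 2 and 8.47% of batch 3, and 26.2% and 19.7% of inflamed cells in batches 2 and 3 reached 100 CPM, which 0 naive cells did.

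Ly6a and Ly6d encode small proteins of the Ly6 family that are held on the cell surface by a GPI anchor, and Ly6d is known as a mark of luminal progenitors in the mouse prostate. Ly6a had 2121 CPM and 2031 CPM in the inflamed sums of batches 2 and 3, against 522 CPM and 630 CPM in the naive sums of batches 2 and 3. Its levels did not overlap between conditions and were 4.06-fold higher in inflamed cells of batch 2 and 3.23-fold higher in batch 3 (log2 fold change 1.86 ± 0.27 SE, edgeR's quasi-likelihood test, unadjusted p = 0.00304, adjusted p = 0.568). Ly6a was read in 100% of inflamed cells in each batch and in 98.1% and 98.3% of naive cells of batches 2 and 3, so presence hardly separated the conditions. The level did: the per-cell median was 1579 CPM and 1580 CPM in inflamed cells of batches 2 and 3, against 311 CPM and 280 CPM in naive cells of batches 2 and 3. Because Sca-1 was stained for the sort and the gates are not given, the part of the gate in this difference was not tested.

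Ly6d had 808 CPM and 1041 CPM in the inflamed sums of batches 2 and 3, against 156.5 CPM and 196.6 CPM in the naive sums of batches 2 and 3. Its ratio was nearly the same in both batches, 5.16-fold and 5.30-fold higher in the inflamed sums of batches 2 and 3, with no overlap (log2 fold change 2.39 ± 0.29 SE, edgeR's quasi-likelihood test, unadjusted p = 0.00166, adjusted p = 0.568). It was read in 97.5% of inflamed cells of batch 2 and 98.7% of batch 3, against 56.6% of naive cells of batch 2 and 66.1% of batch 3. Of the naive positive cells in batch 3, 26 of 39 had only 1 to 4 reads. The per-cell median was 499 CPM and 678 CPM in inflamed cells of batches 2 and 3, against 0.850 CPM and 1.19 CPM in naive cells of batches 2 and 3.

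Ly6a has near copies beside it on chromosome 15, and reads of 50 bases cannot always tell them apart. In GENCODE M21 transcripts of GRCm38, 246 of its 1297 distinct windows of 50 bases, or 19%, also occur in another gene, 195 of them in Ly6c1. The first 90 coding bases of both genes, which lie on the minus strand, are shown for how close the copies are; capitals mark the bases that differ.
Ly6a: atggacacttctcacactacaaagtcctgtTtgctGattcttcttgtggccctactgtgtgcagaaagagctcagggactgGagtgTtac
Ly6c1: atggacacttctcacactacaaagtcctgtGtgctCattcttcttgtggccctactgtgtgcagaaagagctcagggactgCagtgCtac
They differ at 4 of the 90 bases. The longest run without a difference between the longest coding sequences of both genes is 45 bases, shorter than a read, so no window that both genes share lies wholly inside both coding sequences. The sources used here do not say how reads with more than 1 match were treated, so part of the Ly6a and Ly6c1 counts is uncertain. Ly6c1 itself had 213 CPM and 342 CPM in the inflamed sums of batches 2 and 3, against 25.1 CPM and 21.8 CPM in the naive sums of batches 2 and 3. Krt4, Psca, Ly6d, Clu, Wfdc2 and Tspan8 had 0 windows in common with another gene. Krt7 shared 0.916% of its windows, and Cyp2f2 shared 9.0%, all with the antisense gene Gm15883, which had 7 reads over all kept cells.

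Psca, another GPI-anchored member of the Ly6 family and the prostate stem cell antigen, gave no usable comparison. It had 6.32 CPM and 1.54 CPM in the inflamed sums of batches 2 and 3, against 0 CPM and 9.69 CPM in the naive sums of batches 2 and 3. Each of the 3 sums with reads owed all of them to 1 cell. The inflamed level was thus at least 118.8-fold higher in batch 2 against a floor of 3 counts and 6.30-fold lower in batch 3, in each case on 1 cell (log2 fold change 3.19 ± 10.6 SE, edgeR's quasi-likelihood test, unadjusted p = 0.772, adjusted p = 0.995). Psca was read in 1.25% of inflamed cells of batch 2 and 1.32% of batch 3, against 0 of 53 naive cells of batch 2 (exact upper limit 6.72%) and 1.69% of naive cells of batch 3.

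Krt4 and Krt7 encode type II keratins, Krt4 known from wet stratified epithelia such as the oesophagus and Krt7 from ductal epithelia. Krt4 had 68.1 CPM and 223 CPM in the inflamed sums of batches 2 and 3, against 7.51 CPM and 33 CPM in the naive sums of batches 2 and 3. Its inflamed level was 9.07-fold higher in batch 2 and 6.76-fold higher in batch 3, with no overlap between conditions (log2 fold change 2.97 ± 0.50 SE, edgeR's quasi-likelihood test, unadjusted p = 0.00548, adjusted p = 0.568). The top cell gave 87% and 68.7% of the Krt4 reads in the naive sums of batches 2 and 3, against 30.6% and 14.7% in the inflamed sums of batches 2 and 3. With those cells left out the ratios were 48.5-fold and 18.4-fold in batches 2 and 3. Krt4 was also a minority transcript in inflamed cells, read in 37.5% of cells in batch 2 and 40.8% in batch 3, and in batch 2 19 of the 30 positive cells had 1 to 4 reads. In naive cells it was read in 11.3% in batch 2 and 16.9% in batch 3.

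Krt7 had 154.1 CPM and 142.9 CPM in the inflamed sums of batches 2 and 3, against 32.1 CPM and 84.7 CPM in the naive sums of batches 2 and 3. The sums did not overlap, but the ratio was 4.81-fold in batch 2 and only 1.69-fold in batch 3, and the difference did not pass the unadjusted threshold (log2 fold change 1.51 ± 0.60 SE, edgeR's quasi-likelihood test, unadjusted p = 0.0706, adjusted p = 0.589). Krt7 was read in 68.8% and 59.2% of inflamed cells of batches 2 and 3, against 54.7% and 47.5% of naive cells of batches 2 and 3, with overlapping intervals within each batch. Most naive positive cells had 1 to 4 reads, 17 of 29 in batch 2 and 17 of 28 in batch 3, against 10 of 55 and 6 of 45 inflamed positive cells in batches 2 and 3.

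Cyp2f2 encodes a cytochrome P450 known best from club cells of the lung airways. It had 1120 CPM and 790 CPM in the inflamed sums of batches 2 and 3, against 476 CPM and 502 CPM in the naive sums of batches 2 and 3. The sums did not overlap, yet this was the smallest ratio of the 8 markers that were higher in both batches, 2.35-fold and 1.57-fold in batches 2 and 3 (log2 fold change 0.94 ± 0.31 SE, edgeR's quasi-likelihood test, unadjusted p = 0.0418, adjusted p = 0.568). Reads of Cyp2f2 were about as widespread in both conditions, in 96.2% and 82.9% of inflamed cells of batches 2 and 3 against 94.3% and 81.4% of naive cells of batches 2 and 3. The medians stood further apart, at 584 CPM and 203 CPM in inflamed cells of batches 2 and 3 against 8.59 CPM and 3.12 CPM in naive cells of batches 2 and 3. The highest cell of all was naive, at 9247 CPM in batch 3, and the top naive cell of each batch gave 31.6% and 35.6% of its sum's reads.

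**Figure D2:**
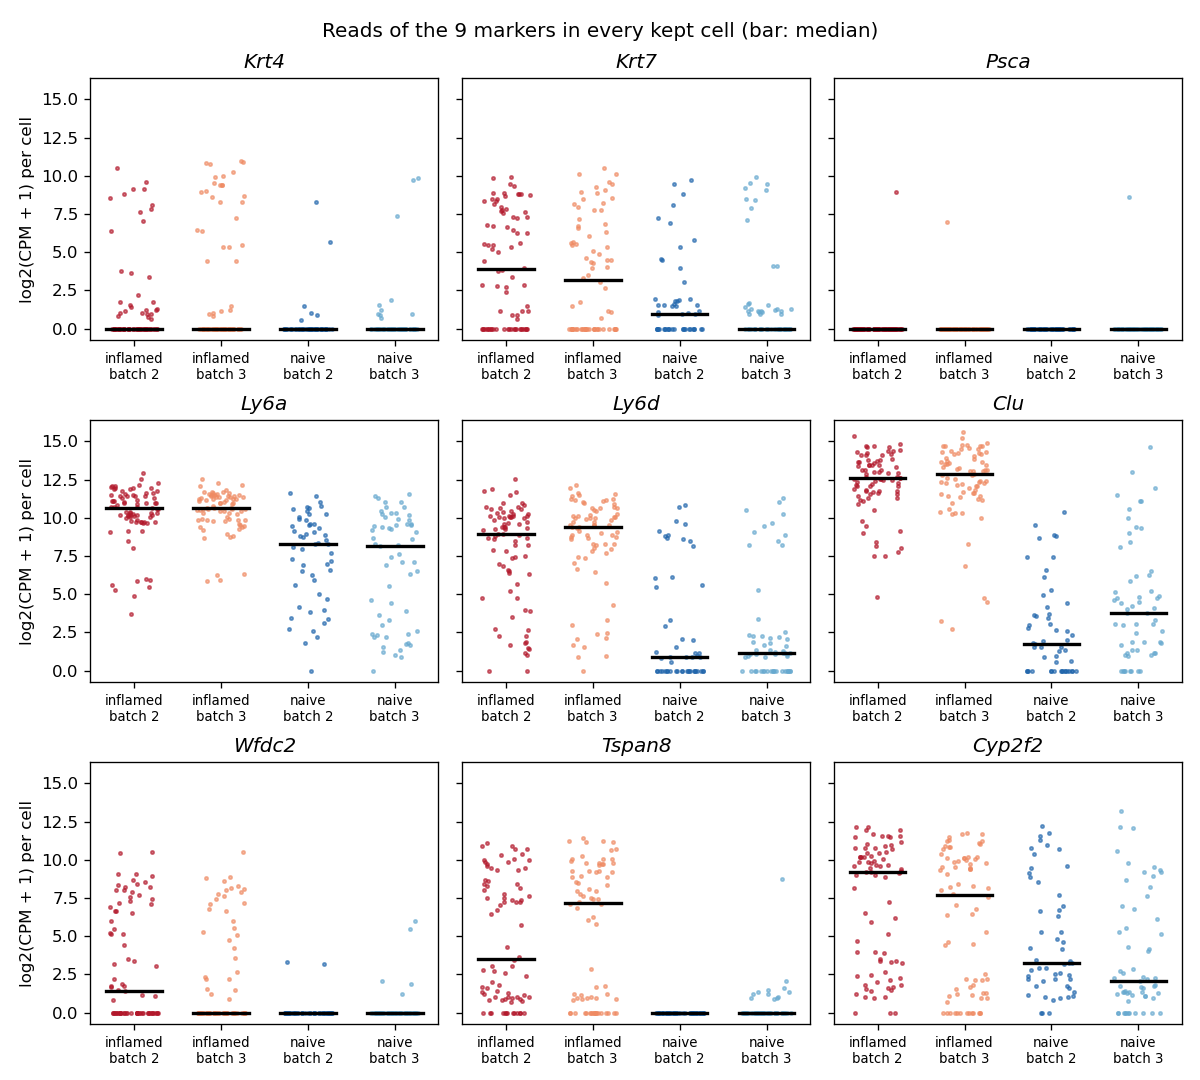
Level of each marker in every kept cell, as log2(CPM + 1), in inflamed cells of batches 2 and 3 (left) and naive cells of batches 2 and 3 (right); bars are medians over cells. Clu, Ly6a and Ly6d have higher medians in inflamed cells of both batches, and some naive cells reach inflamed levels. Ly6d was at 100 CPM or more in 20.8% and 18.6% of naive cells of batches 2 and 3, against 70% and 81.6% of inflamed cells. Krt4, Wfdc2 and Tspan8 split into cells near 0 and cells at high levels. The single naive Tspan8 point near 427 CPM lies in batch 3.

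Levels of different markers can be compared only per length. The length used was the union of all annotated exons of a gene, which came to 7.049 kb for Krt7 over 5 transcripts and 2.133 kb for Krt4. Per kb of exon the order in the inflamed sum of batch 3 was Clu (3494 CPM per kb), Ly6a (1686), Ly6d (1400), Cyp2f2 (390), Tspan8 (288), Krt4 (104.5), Wfdc2 (55.7), Krt7 (20.3) and Psca (1.79). In the inflamed sum of batch 2 the first 5 places were the same, with Clu at 2946 and Ly6a at 1760 CPM per kb, and Wfdc2 (105.8) stood before Krt4 (31.9). In the naive sum of batch 2 the order began with Ly6a (434 CPM per kb), Cyp2f2 (235) and Ly6d (210), and Clu stood at 21.2; in that of batch 3 it began with Ly6a (522), Clu (324), Ly6d (264) and Cyp2f2 (248). Without the naive cell of batch 3 that stood apart, Clu came to 145.9 CPM per kb in that sum, below Ly6d (264) and Cyp2f2 (242). Neighbours such as Krt4 and Wfdc2 traded places between batches, so their order is not resolved. The low place of Krt7 depends on its long exon union and is not resolved either.

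**Figure D3:**
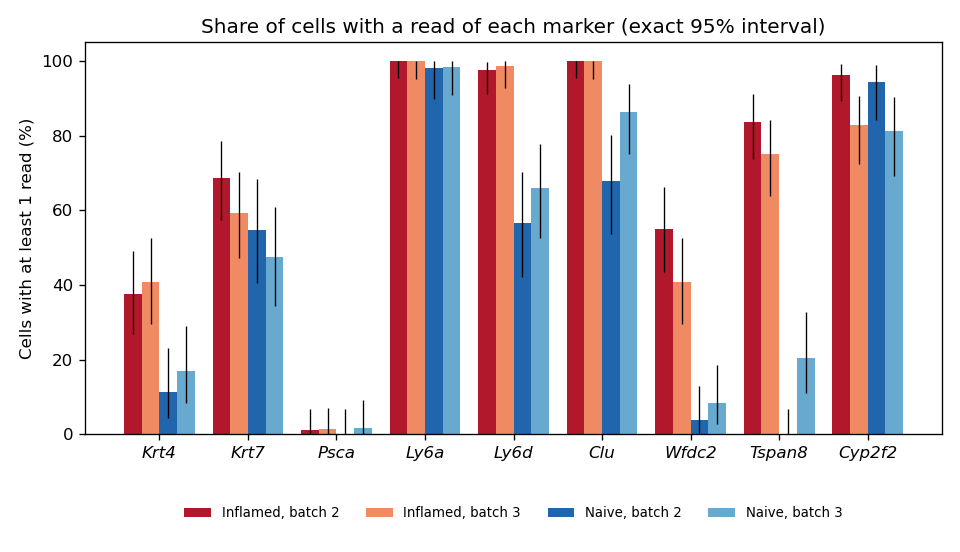
Share of kept cells with at least 1 read of each marker, with exact 95% intervals for counting error, for inflamed cells of batches 2 and 3 (red shades) and naive cells of batches 2 and 3 (blue shades). Within each batch the intervals of the conditions do not overlap for Krt4, Ly6d, Clu, Wfdc2 and Tspan8, and they do for the others.

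Inflamed cells held reads of more markers per cell than naive cells in both batches. To make cells of unlike depth comparable, each was thinned to 500000 counts, which left out 10 and 4 inflamed cells of batches 2 and 3 and 7 and 4 naive cells of batches 2 and 3 as too shallow. Inflamed cells then had reads of 6.19 ± 1.13 markers in batch 2 (SD over 70 cells) and 5.78 ± 1.36 in batch 3 (72 cells), against 3.35 ± 1.16 in naive cells of batch 2 (46 cells) and 3.76 ± 1.35 in batch 3 (55 cells). The difference was 2.84 markers per cell in batch 2 and 2.01 in batch 3; cells are not replicates, so no test goes with it. At least 5 of the 9 markers were read in 91.4% of inflamed cells of batch 2 (82.3% to 96.8%) and 80.6% of batch 3 (69.5% to 88.9%), against 13% of naive cells of batch 2 (4.94% to 26.3%) and 27.3% of batch 3 (16.1% to 41%). Without thinning these shares were 95% and 88.2% of inflamed cells in batches 2 and 3 and 26.4% and 40.7% of naive cells in batches 2 and 3. The count per cell ran over 4 to 8 and 3 to 8 in inflamed cells of batches 2 and 3, and over 0 to 5 and 1 to 8 in naive cells of batches 2 and 3, so the distributions overlap. No cell had all 9.

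Thinning to equal depth gave these shares for the single markers. Tspan8 was read in 72.9% and 65.3% of inflamed cells of batches 2 and 3, against 0% and 16.4% of naive cells of batches 2 and 3. Wfdc2 stood at 51.4% and 36.1% in inflamed cells of batches 2 and 3, against 4.35% and 9.09% in naive cells of batches 2 and 3. For Krt4 the shares were 32.9% and 40.3% in inflamed cells of batches 2 and 3, against 8.70% and 9.09% in naive cells of batches 2 and 3. For these 3 markers the share stayed higher in inflamed cells in both batches. For Cyp2f2 thinning opened a gap in batch 2, 94.3% of inflamed cells against 71.7% of naive cells, and left 77.8% of inflamed cells against 70.9% of naive cells in batch 3. For Krt7 it gave 70% and 58.3% in inflamed cells of batches 2 and 3, against 41.3% and 40% in naive cells of batches 2 and 3. Ly6d stood at 95.7% and 98.6% in inflamed cells of batches 2 and 3, against 56.5% and 56.4% in naive cells of batches 2 and 3, and Clu at 100% in both inflamed groups, against 56.5% and 78.2% in naive cells of batches 2 and 3.

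**Figure D4:**
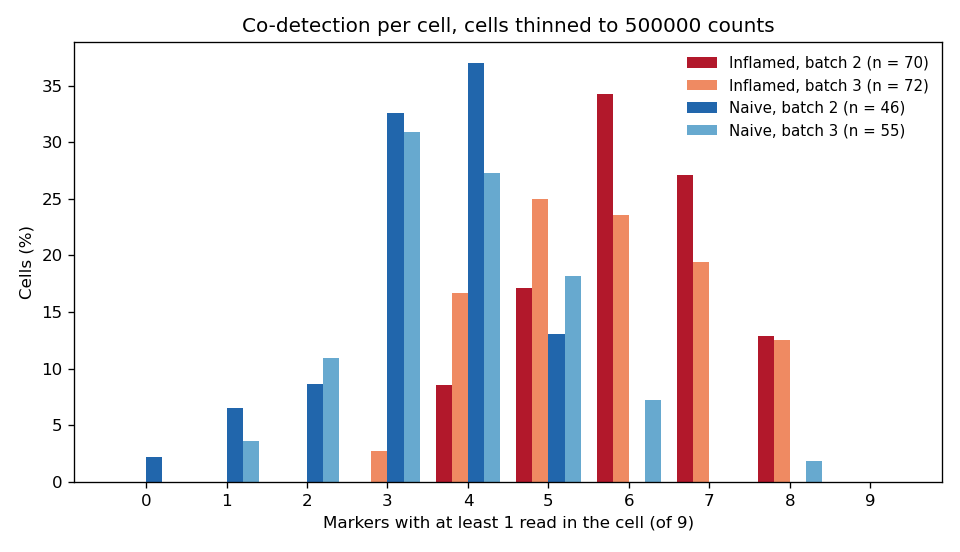
Percent of cells by the number of markers with at least 1 read, after thinning to 500000 counts, for inflamed cells (red shades) and naive cells (blue shades) of each batch. The median is 6 markers in inflamed cells of both batches, against 3.5 and 4 in naive cells of batches 2 and 3; 1 naive cell of batch 3 has 8.

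Because a single read is a weak sign, a level of 100 CPM per cell was also used, on all kept cells. Inflamed cells then had 4.36 markers on average in batch 2 and 4.49 in batch 3, against 1.43 in naive cells of batch 2 and 1.49 in batch 3. At least 3 markers reached that level in 87.5% of inflamed cells of batch 2 (exact 95% interval 78.2% to 93.8%) and 92.1% of batch 3 (83.6% to 97%), against 18.9% of naive cells of batch 2 (9.44% to 32%) and 16.9% of batch 3 (8.44% to 29%). At least 5 did so in 40 of 80 inflamed cells of batch 2 and 37 of 76 of batch 3, against 0 of 53 naive cells of batch 2 and 2 of 59 of batch 3. All inflamed cells had at least 1 marker at that level, while 22.6% and 18.6% of naive cells of batches 2 and 3 had 0.

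The share of thinned cells with reads of both markers of a pair was set beside the product of the separate shares. Pairs with Psca were left out here and from the correlations below, which left 28 pairs. The share with both is fixed by the separate shares where a marker was read in 0% or 100% of the cells. This held for 13 of the 28 pairs in inflamed cells of each batch and 7 in naive cells of batch 2. Pairs whose shares both lay between 20% and 80% are therefore given, a range chosen after the values were seen. In inflamed cells the share with both minus the product lay between -3.00 and 5.43 percentage points in batch 2 (6 pairs) and between -0.31 and 7.75 points in batch 3 (10 pairs, highest for Krt7 with Tspan8). In naive cells it lay between -1.61 and 0.80 points in batch 2 (6 pairs) and between -2.18 and 4.73 points in batch 3 (6 pairs). Across the cells of a group, Spearman correlations of levels were taken for 28 pairs, or 21 in naive cells of batch 2, where Tspan8 had 0 reads. Their median was 0.127 over the 80 inflamed cells of batch 2 and 0.158 over the 76 of batch 3. It was 0.008 and 0.113 over the 53 and 59 naive cells of batches 2 and 3. Single pairs ran from -0.151 to 0.325 in inflamed cells of batch 2 and from -0.150 to 0.348 in those of batch 3. In naive cells they ran from -0.243 to 0.244 in batch 2 and from -0.077 to 0.420 in batch 3. These values are weak and come from cells that differ in depth, and a grouping of markers was not tested. The number of markers in a thinned cell also had a Spearman correlation of 0.301 and 0.242 with the number of genes detected in inflamed cells of batches 2 and 3, and of 0.208 and 0.291 in naive cells of batches 2 and 3. The median number of detected genes after thinning was 4146.5 and 3676.5 in inflamed cells of batches 2 and 3, against 4231.5 and 3019 in naive cells of batches 2 and 3. It was thus lower in inflamed than in naive cells in batch 2 and higher in batch 3. The part of gene detection in the marker count was not tested.

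**Figure D5:**
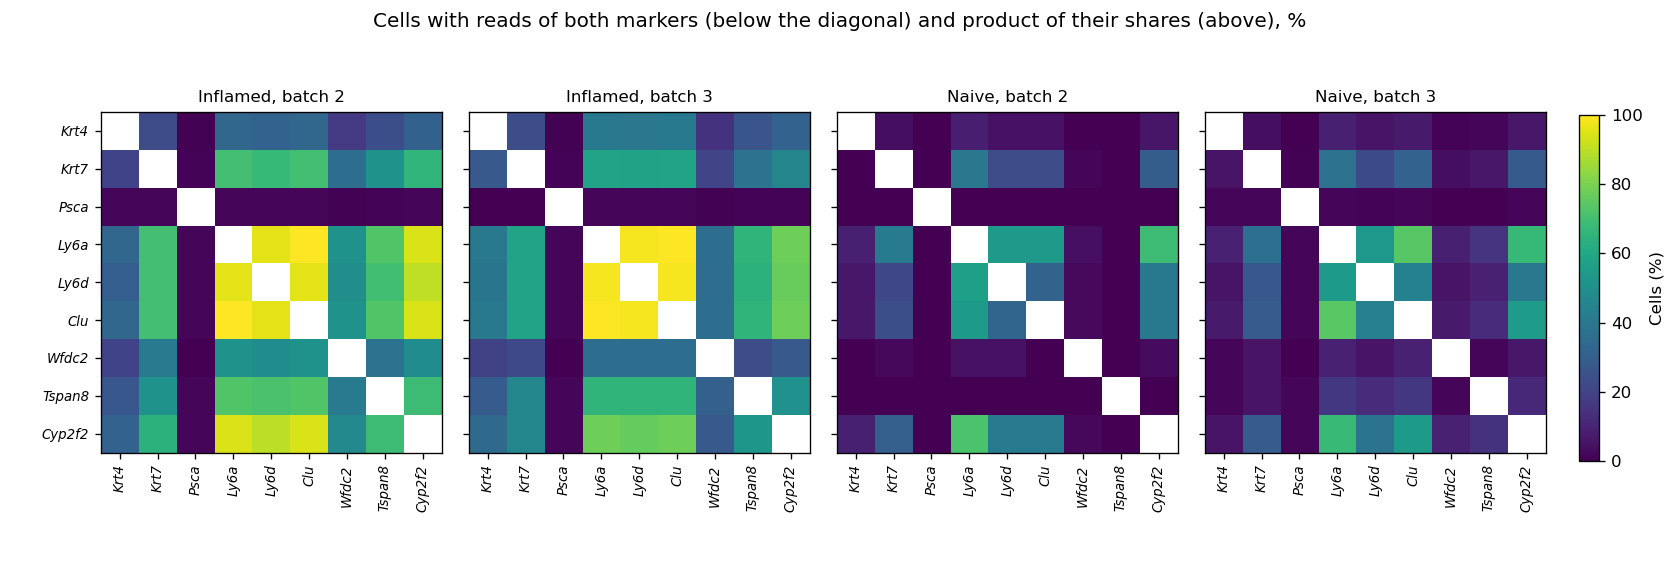
Percent of thinned cells with reads of both markers of a pair (below the diagonal) and the product of the separate shares (above it), for inflamed cells of batches 2 and 3 (left) and naive cells of batches 2 and 3 (right). Pairs of Ly6a, Ly6d and Clu are near 100% in inflamed cells.

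Cells that carried many of the markers also carried basal keratins. Among cells with at least 5 markers at 100 CPM, Krt15 reached 100 CPM in 40 of 40 inflamed cells of batch 2 and 37 of 37 of batch 3, Krt17 in 40 and 36 of them, and Krt14 in 32 and 32. Krt5 did so in 22 of those 40 cells of batch 2 and 20 of those 37 of batch 3, and Trp63 in 12 and 10 of them. Among inflamed cells with under 5 markers at 100 CPM, Krt15 reached that level in 37 of 40 in batch 2 and 38 of 39 in batch 3. Krt5 did so in 8 of those 40 and 21 of those 39, and Trp63 in 4 and 14 of them. Over all kept cells, Krt5 reached 100 CPM in 37.5% and 53.9% of inflamed cells of batches 2 and 3, against 69.8% and 39% of naive cells of batches 2 and 3, so the difference in this share had opposite signs in the 2 batches. Its summed level was lower in inflamed cells in both batches, at 139.3 CPM and 169.9 CPM in the inflamed sums of batches 2 and 3, against 339 CPM and 198.6 CPM in the naive sums of batches 2 and 3. At least 1 of these 4 keratins reached 100 CPM in 79 of 80 and 76 of 76 inflamed cells of batches 2 and 3, against 53 of 53 and 57 of 59 naive cells of batches 2 and 3. Krt15 alone did so in 96.25% and 98.7% of inflamed cells of batches 2 and 3, so it nearly fixes this share in inflamed cells. Trp63, the basal transcription factor, reached that level in 20% and 31.6% of inflamed cells of batches 2 and 3, against 41.5% and 28.8% of naive cells of batches 2 and 3.

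One naive cell of batch 3, picked out after the values were seen, held 55% of the Clu, 68.7% of the Krt4, 97.6% of the Tspan8 and 100% of the Psca reads of that batch's naive sum. It had reads of 8 markers and 7 at 100 CPM or more, the highest count of any naive cell: Clu at 25114 CPM, Ly6a at 2463, Krt4 at 928, Cyp2f2 at 489, Tspan8 at 427, Psca at 397 and Krt7 at 238 CPM. Ly6d was at 0.862 CPM there, the level of 1 read, and Wfdc2 at 0. The same cell had Krt15 at 1651 CPM, Krt14 at 3.45 CPM, Krt5 at 0.862 CPM and Trp63 at 0, with 1036 CPM of the luminal secretory gene Azgp1 and 703 CPM of the proximal luminal gene Ppp1r1b. Its 1160067 counts and 4083 genes lie within the range of the other cells. With that cell left out, Psca had 0 reads in both naive sums and 1 inflamed cell with reads in each batch, so its count as higher in both batches and its unadjusted p of 0.0488 in edgeR's quasi-likelihood test follow from the removal. The other 8 markers were higher in inflamed sums in both batches, as before, and 7 of them passed the unadjusted threshold, as before. The log2 fold change was then 5.82 ± 0.87 SE for Clu, 12.19 ± 1.53 for Tspan8 and 3.78 ± 0.65 for Krt4, and edgeR's quasi-likelihood test with Benjamini-Hochberg adjustment still called 0.

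Other genes known from proximal luminal cells were read from a list of 10, also chosen with earlier results of these data known. 0 of the 10 passed the adjusted threshold of edgeR's quasi-likelihood test. At an unadjusted p under 0.05, 5 were higher and 0 were lower, against 5.04% and 3.23% of all genes tested. In both batches 7 were higher and 1 was lower, where 30.9% of all genes tested were higher and 28.3% were lower (median log2 ratios 3.11 and 1.29 in batches 2 and 3). Krt19, a keratin of simple epithelia, had 584 CPM and 619 CPM in the inflamed sums of batches 2 and 3, against 30.3 CPM and 100.9 CPM in the naive sums of batches 2 and 3. The transcription factor genes Elf3 and Runx1 were also among those with the lowest p, each with no overlap between conditions. The 1 lower in both batches was Cldn4, a tight junction gene, named as an exception because no other gene of the list was so. It had 1093 CPM and 1039 CPM in inflamed sums of batches 2 and 3, against 1391 CPM and 1635 CPM in naive sums of batches 2 and 3. The remaining 2 of the 10 had opposite signs in the batches.

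Both chromosomal neighbourhoods of the markers on chromosome 15 were read whole. Psca (chr15:74714839-74717069, plus strand), Ly6d (chr15:74762056-74763620, minus strand) and Ly6a (chr15:74994877-74998031, minus strand) lie in the Ly6 gene cluster, for which 19 of 20 listed genes had a row and 8 passed the filter on low counts; coordinates are from GENCODE M21 on GRCm38. 3 of them, Ly6d, Ly6a and Ly6c1, had an unadjusted p under 0.05, all higher in inflamed sums, where 5.04% of all genes tested were. In both batches 6 of the 8 were higher and 0 lower, against 30.9% and 28.3% of all genes tested, and 8 other genes of the cluster had 0 reads in every sum. Ly6e, at 2061 CPM and 2086 CPM in inflamed sums of batches 2 and 3 against 1552 CPM and 1501 CPM in naive sums of batches 2 and 3, did not overlap between conditions either. Krt7 (chr15:101411043-101430313, plus strand) and Krt4 (chr15:101918535-101924735, minus strand) lie in the type II keratin cluster, where 23 of 24 listed genes had a row and 7 passed the filter. There, Krt4 and Krt6a were the 2 of 7 higher at an unadjusted p under 0.05 (5.04% of all genes tested) and 0 were lower. In both batches 5 of the 7 were higher and 1 was lower, against the same 30.9% and 28.3%. Krt6a, a keratin known from hyperproliferative and injured epithelium, had 162.2 CPM and 47.2 CPM in inflamed sums of batches 2 and 3, against 0.089 CPM and 0.316 CPM in naive sums of batches 2 and 3. The remaining markers lie elsewhere, Clu at chr14:65968483-65981547, Wfdc2 at chr2:164562413-164568510, Tspan8 at chr10:115816832-115849893 and Cyp2f2 at chr7:27119909-27133660, all on the plus strand. Krt7, Tspan8 and Cyp2f2 each overlap an annotated antisense gene. For Krt7 and Cyp2f2, reads from windows shared with that gene cannot be told apart without strand, while Tspan8 shared 0 windows of 50 bases.

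The labelled cell type was checked against basal and other markers. Of 12 basal genes, all tested, Col17a1, a hemidesmosome collagen, and Krt17 passed the unadjusted threshold, both higher in inflamed sums, where 5.04% of all genes tested were higher by that threshold. In both batches 6 of the 12 were higher and 2 lower, against 30.9% and 28.3% of all genes tested (median log2 ratios 0.25 and 0.08 in batches 2 and 3). The 2 lower in both batches were the defining basal genes Krt5 (log2 ratios -1.28 and -0.22 in batches 2 and 3) and Trp63 (-1.70 and -0.23 in batches 2 and 3), neither of which passed the unadjusted threshold. The summed levels of the luminal keratins Krt8 and Krt18 had opposite signs in the 2 batches. Their shares of cells at 100 CPM were higher in inflamed cells in both batches. For Krt18 they were 80% and 75% in inflamed cells of batches 2 and 3, against 64.2% and 59.3% in naive cells. For Krt8 they were 33.75% and 31.6% in inflamed cells of batches 2 and 3, against 24.5% and 23.7% in naive cells. Leukocyte genes summed to 0.114 CPM and 0.684 CPM in the inflamed sums of batches 2 and 3 and to 0 in both naive sums, and 8 of the 10, Ptprc among them, had 0 reads in all 4. Neuroendocrine genes summed to 0.114 CPM and 6.96 CPM in the inflamed sums of batches 2 and 3 and to 0 in both naive sums. Endothelial genes summed to between 0 and 3.07 CPM over the 4 sums. Of the fibroblast and smooth muscle genes Dcn alone was abundant, at 3377 CPM and 4397 CPM in the inflamed sums of batches 2 and 3 against 3933 CPM and 4369 CPM in the naive sums of batches 2 and 3, with reads in every cell, and Des, Lum and Myh11 were at 0.

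Genes of other epithelia were less even between conditions. Of 6 urothelial genes 2 could be tested and 1 was higher at an unadjusted p under 0.05 (5.04% of all genes tested), Upk1b, which encodes a uroplakin, at 355 CPM and 429 CPM in inflamed sums of batches 2 and 3 against 67.1 CPM and 33.8 CPM in naive sums of batches 2 and 3; the 6 summed to 356 and 431 CPM in the inflamed sums and to 72.5 and 33.8 CPM in the naive sums of batches 2 and 3, and Upk3a was at 0 in the inflamed sums. Seminal vesicle genes summed to 67.2 CPM and 0 CPM in inflamed sums of batches 2 and 3, against 11.6 CPM and 169.6 CPM in naive sums of batches 2 and 3, and so had opposite signs in the batches. Of 14 tested of 16 distal luminal genes, 1 was higher and 2 were lower by the same threshold, against 5.04% and 3.23% of all genes tested. The gene higher in inflamed sums was Mmp7, a matrix metalloproteinase gene, at 731 CPM and 760 CPM in inflamed sums of batches 2 and 3 against 0 CPM and 0.379 CPM in naive sums of batches 2 and 3. Defb50, a defensin gene, was at 77.6 CPM and 56.3 CPM in inflamed sums of batches 2 and 3 against 398 CPM and 185.7 CPM in naive sums of batches 2 and 3. Hoxb13, a homeobox gene of the prostate, was at 29.4 CPM and 13 CPM in inflamed sums of batches 2 and 3 against 119.7 CPM and 108.6 CPM in naive sums of batches 2 and 3. Whether other epithelial cells entered the sort, and what part they would have in the marker levels, was not tested.

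Patterns most like each marker's were sought over the 80 and 76 inflamed cells among 5978 genes, by the mean of the Spearman correlations within each batch, and named where that mean was at least 0.4. Tspan8 was most like Krt19 (0.47). Cyp2f2 was most like Mfge8 (0.46), Gm8659 (0.45) and Aldoart1 (0.44), and Ly6a most like Urah (0.41) and Gm14450 (0.40). Krt4, Krt7, Psca, Ly6d, Clu and Wfdc2 had 0 genes at that level. These correlations describe cells that share a batch and differ in depth.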

How the data were processed

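The authors deposited counts of reads per gene and cell, unnormalised, as 1 table for each batch, both with 48440 gene rows; 0 rows named no gene and 0 columns stayed unused. Capture used the Fluidigm C1 and SMARTer chemistry, and libraries were read single-end over 50 bases, per the labels' protocols. TopHat2, HTSeq, R 3.4.1, Seurat 1.4 and the build GRCm38.p6 are named without roles, per the submitters' processing notes. Without molecular identifiers, counts stand for reads rather than molecules. Symbols came from GENCODE M21, in which 48058 identifiers matched.

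The 9 markers and all gene lists were chosen with earlier results of these data known. All 9 markers are named, and of each list at most 4 genes with the lowest unadjusted p; defining basal markers and stated exceptions are named besides. One gene of the other proximal luminal list is not reported here. Of 282 cells, 14 were left out; total counts ran from 2725 to 2219764 per deposited cell, 0 cells were identical and no doublet caller was run. Sums were tested in edgeR 4.0.16 (R 4.3.3, limma 3.58.1) with TMM factors, filterByExpr and batch as a term, which left 1 residual degree of freedom. A prior count of 2 entered the within-batch log2 ratios of all genes tested, and the fit kept edgeR's default prior count. The test was checked on simulated data. DESeq2 1.42.0 was an alternative. The batch is a label shared by both conditions; the deviations of same-batch sums had a correlation of -0.01, with 2 pairs. Coding bases and 50-base windows came from GENCODE M21 transcripts.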

Additional observations from a re-analysis of the deposited data

How the results depend on the processing

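The 8 markers other than Psca kept a positive log2 fold change under all 17 alternatives run for each. Psca was negative in 4 of its 15 alternatives, without the replicate block (-0.30) and when a sum or batch was left out, its values then running from -2.63 without batch 2 through -1.64 without the inflamed sum of batch 2 and -1.30 without the naive sum of batch 2 and 7.68 without batch 3 to 11.13 without the naive sum of batch 3. edgeR called 0 markers and 0 genes in every alternative with 2 sums per condition. DESeq2 called 6 of the 9 markers and 1461 of the 14713 genes tested, 927 higher and 534 lower. Unadjusted, edgeR's main design had 742 genes higher and 475 lower. The number of markers higher at an unadjusted p under 0.05 was 7 as reported, 6 with upper-quartile factors and 6 without the replicate block, where the pairing by batch was dropped, edgeR called 0 markers and 1155 genes were higher and 681 lower unadjusted. Leaving out 1 sum, with the condition alone in the model and the lone sum assumed to vary like the others, gave 4 without either inflamed sum, 5 without the naive sum of batch 2 and 8 without that of batch 3, a range of 4 to 8; this alternative, and leaving out the naive cell of batch 3 described above, were chosen after seeing the data. With the batch term, leaving out a batch leaves no residual degree of freedom, so those values have no test. The number of markers higher in every batch used was 8, or 9, with Psca added, without that cell or without batch 3. The mean difference in markers per cell was 2.43 (2.01 to 2.84 by batch) and 3.18 with at least 5 reads per marker. The difference in the share of cells with at least 3 markers was 15.97 points (14.5 to 17.4 by batch), 8.30 unthinned, 46.5 thinned to 100000 counts, 61.6 with at least 5 reads and 44.5 without Ly6a; nearly all cells of both conditions have a Ly6a read. The median log2 fold change of all genes was 0.10 as reported, 0.14 with upper-quartile factors and 0.43 with the top cell of each gene left out of each sum, and each marker but Psca stayed above it. At this depth the naive Wfdc2 level of batch 2 rests on 17 reads and the naive Tspan8 level of batch 2 on 0.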
